A study of Mus musculus with 12 samples.

Results

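Messenger RNA of 10 genes that make, break down, bind or sense retinoic acid was followed through 5 RNA sequencing libraries of T-positive cells. The genes were taken by name: the retinaldehyde dehydrogenases Aldh1a2 and Aldh1a3, the retinal reductase Dhrs3, the degrading enzymes Cyp26a1 and Cyp26b1, the binding proteins Crabp1 and Crabp2, and the receptors Rara, Rarb and Rarg. All 10 were found among the 23421 gene symbols of the deposited table. The mouse cells, of strain background 129S2/C57Bl6J, had been sorted for T, also called Brachyury, a T-box factor that marks the primitive streak and newly formed mesoderm. Embryos gave 1 wild-type library, in which Theiler stages TS12 and TS13 were together, and 2 libraries of the mutant T_Y88A, an amino acid substitution in T, 1 for each stage. Cultures gave 1 wild-type and 1 T_Y88A library from Day 4 of differentiation of embryonic stem cells, grown in serum-free medium with BMP4 at 20 ng/mL for 18 hours and then WNT3A and FGF8 at 40 ng/mL each. The medium held B-27 supplement, whose standard formula includes a vitamin A ester; the version is not stated in the labels.

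Retinoic acid is a small lipid hormone made from vitamin A. Retinol is oxidised to retinal, and aldehyde dehydrogenases turn retinal into retinoic acid, which enters the nucleus and binds retinoic acid receptors paired with retinoid X receptors on DNA. In the elongating embryo, Aldh1a2 makes the hormone in the trunk mesoderm and Cyp26a1 destroys it in the tail end, so that caudal progenitors are kept from it. Loss of either enzyme disturbs trunk and tail formation in mice.

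Values were FPKM, fragments scaled by gene model length and by the number mapped, which allows levels of different genes to be set side by side. Read totals cannot be had from FPKM, and the depth in reads is therefore unknown. Steps between low values put the depth of the other 4 libraries at 0.486 to 1.04 times that of wild-type embryos, the lowest being Day 4 T_Y88A. T itself was present in every library at 27 to 72.9 FPKM. The genotype of the wild-type embryo library is known from its sample label alone: its column is headed TY, as the mutant columns are, and the series text uses wild type for T_het embryos. Every embryo direction rests on that label, and the Day 4 genotypes on the sample titles. Of the presomitic mesoderm markers, Msgn1 stood at 41.1 FPKM in wild-type embryos, 3.48 and 2.71 in the T_Y88A embryos, 0.409 in wild-type Day 4 cells and was listed at 0 in Day 4 T_Y88A. In the Day 4 cells 6 endoderm markers summed to 264 to 314 FPKM against 11.5 to 26.0 in embryos. Trh (101 and 180 FPKM, wild type and T_Y88A), Cldn6 (80.0 and 95.2) and Cer1 (52.5 and 17.2) made up most of the Day 4 sums. Sox17 was alike in both systems, at 1.37 and 1.99 FPKM at Day 4 against 1.54, 0.662 and 1.15 in embryos. Foxa1 was under 0.437 FPKM in all libraries but wild-type Day 4, which had that value.

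**Figure D1:**
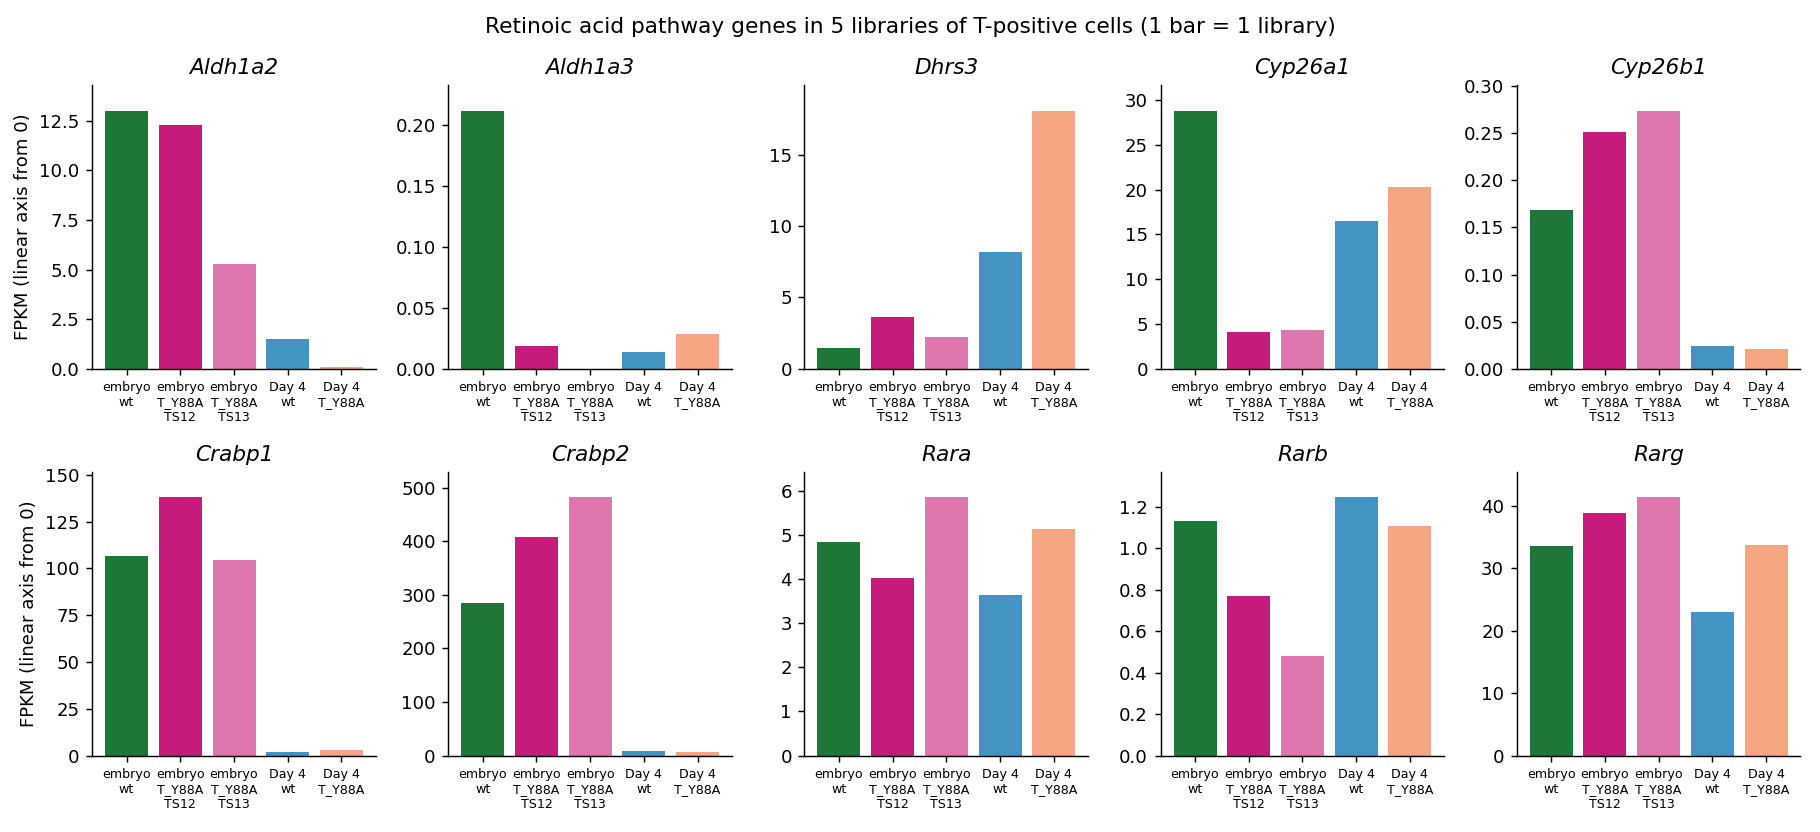
FPKM of each of the 10 genes (linear axes from 0, scaled per gene) in the 5 libraries; each bar is 1 library, so no error is drawn. Cyp26a1 is low in both T_Y88A embryo libraries (4.08 and 4.38 FPKM), and Crabp1 and Crabp2 are high in embryos and low at Day 4.

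Of the enzymes that break retinoic acid down, Cyp26a1 carried nearly all of the transcript. Cyp26a1 (chromosome 19, 37697738 to 37701536, mm10) stood at 28.8 FPKM in wild-type embryos, 4.08 in T_Y88A TS12, 4.38 in T_Y88A TS13, 16.5 in wild-type Day 4 cells and 20.3 in Day 4 T_Y88A. Both T_Y88A embryo libraries lay below all other libraries and differed from one another by 0.08 on the log2 scale. In order of level, wild-type embryos came first, the Day 4 libraries next, and the T_Y88A embryos last. Cyp26a1 made up 93.8% to 99.9% of the summed FPKM of the 3 Cyp26 genes in each library. Cyp26b1 (chromosome 6, 84571414 to 84593908), which clears the hormone mainly in limb and hindbrain, stood at 0.169, 0.251 and 0.274 FPKM in embryos (wild type, TS12, TS13) and at 0.0247 and 0.0207 at Day 4. Cyp26c1, the remaining enzyme of the family, was at or below 0.0745 FPKM throughout.

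Cyp26a1 is known to be induced by retinoic acid itself, through a DR5 element, 2 receptor half-sites in the same direction with 5 bases between them. Promoter windows from 250 bases before to 50 after a RefSeq start site (GRCm38.p6, the assembly of mm10) were found for 8 of the 10 genes, and not for Aldh1a3 and Crabp2. They were searched on both strands for pairs of half-sites with 5 bases between. A half-site was AGGTCA, the usual form, or AGTTCA, the form found in Cyp26a1, or GGGTCA, another known form, or GGTTCA, found in Rarb. Cyp26a1 and Rarb were the 2 genes with a pair, and 0.0974% of the 32851 windows of all genes held one. Forms known from these 2 genes were among the letters searched. Their match was therefore fixed by that choice and is given as a description. The windows of both genes are shown because they hold such a pair, with the half-sites in capitals. In Cyp26a1 the pair lies on the opposite strand and is seen here as its complement. The Cyp26a1 window is chr19:37697558-37697857 on the plus strand and the Rarb window chr14:16575427-16575726 on the minus strand, each read in the direction of its gene.
Cyp26a1: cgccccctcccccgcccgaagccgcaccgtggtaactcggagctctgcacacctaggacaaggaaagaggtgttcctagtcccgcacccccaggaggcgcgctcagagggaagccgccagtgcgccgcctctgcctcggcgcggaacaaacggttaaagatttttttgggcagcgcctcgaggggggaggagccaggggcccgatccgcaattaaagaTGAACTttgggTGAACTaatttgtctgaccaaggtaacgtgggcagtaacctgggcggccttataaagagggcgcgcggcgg
Rarb: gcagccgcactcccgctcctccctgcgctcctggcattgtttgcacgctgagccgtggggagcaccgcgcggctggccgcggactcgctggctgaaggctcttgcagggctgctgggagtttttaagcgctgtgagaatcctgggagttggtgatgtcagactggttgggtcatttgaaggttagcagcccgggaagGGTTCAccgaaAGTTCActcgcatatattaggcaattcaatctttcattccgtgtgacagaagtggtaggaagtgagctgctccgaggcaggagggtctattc
The pair lies at -32 to -16 from the start site of its window in Cyp26a1 and at -53 to -37 in Rarb. Neither start site is the outer end of the gene span given here, and both pairs lie inside those spans. The T-box letters AGGTGTGA were in 0 of the 14 windows of these genes and in 1.28% of all windows. The shorter GGTGTG was in the Cyp26a1 window, also in windows of Aldh1a2, Rara and Dhrs3, and in 19.0% of all windows. A match of letters does not show that a factor binds.

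The embryo comparison asks which of the 10 genes differ between the genotypes in sorted embryo cells. Cyp26a1 was 6.81-fold lower in FPKM, at 4.23 ± 0.211 (SD, n = 2) against 28.8. Its log2(FPKM + 1) fell by 2.51 ± 0.21 (SE; 95% interval -2.97 to -2.06; limma adjusted p = 5.96e-05), the ninth smallest p of 11145 genes. Of the 7 genes that passed the filter of a mean of 1 FPKM, Cyp26a1 was the 1 called, and the other 6 were not. Of all genes tested, 2.40% were called, 0.763% higher and 1.63% lower, or 267 genes; quantile normalization left 34, of which 3 were higher, where Cyp26a1 passed (adjusted p = 0.00938). The variance came from 2 T_Y88A libraries of different stages, the 1 wild-type library being assumed to vary alike, and nothing says that the libraries came from separate litters. With no filter on low values 0 genes were called (2251 at an unadjusted p under 0.05) and the Cyp26a1 value had an adjusted p of 0.356.

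Some lists of cell type markers were lower in both T_Y88A embryo libraries, as Cyp26a1 was, and others were not. The 7 streak and tail bud markers summed to 208 FPKM in the wild type, 297 in TS12 and 170 in TS13. Among them Mixl1 (2.67, 0.167 and 0.0973) and Fgf8 (13.1, 9.99 and 3.78) were lower in both T_Y88A libraries. Nkx1-2 (33.2, 91.9 and 58.7) was higher in both, and the rest of the list was higher in TS12 and lower in TS13. Over 7 presomitic markers the summed FPKM was 183 in the wild type, 48.5 in TS12 and 33.2 in TS13, with none at 0. The sum of 8 blood and endothelial markers was 6294, 1120 and 2206, and that of 5 notochord and node markers 9.80, 3.81 and 3.74. Of these 5, Noto and Foxj1 were listed at 0 in both T_Y88A libraries. Nog alone of the 5 was higher there, at 1.71, 3.70 and 3.19, and made up most of both T_Y88A sums. The sum of the 7 neural markers rose, at 28.1, 44.2 and 73.5, with Olig2 at 0 in the wild type and in TS13. In bulk libraries fewer cells of a type and less RNA per cell cannot be told apart, and the part of these markers in the Cyp26a1 result was not tested.

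A list of 13 tail-end factors and ligands was drawn up for roles upstream of Cyp26a1 or against retinoic acid, which were not tested here. Msgn1 and Tbx6, presomitic markers as well, fell by limma and 11 were not called, where 1.63% of all genes were called lower. The median log2 difference was -0.28 against -0.01 over all genes, and 10 of the 13 were below 0. Msgn1, a factor of presomitic mesoderm, was low in both T_Y88A libraries as Cyp26a1 was (41.1, 3.48 and 2.71 FPKM; adjusted p = 8.99e-06). Tbx6, a T-box factor needed for paraxial mesoderm, was measured at 12.6, 4.79 and 1.60 FPKM in the wild type, TS12 and TS13 (adjusted p = 0.0238). T stood at 65.9, 69.8 and 27 FPKM, so in TS12, where Cyp26a1 was low, T RNA was near the wild-type library. Likewise near or above that library in TS12 were the signal Wnt3a, at 12.1, 13.6 and 2.02 FPKM, and the caudal homeobox gene Cdx2, at 73.8, 101 and 72.3. The wild-type library held both stages together, so these TS12 values have no wild type of matched stage beside them. The streak growth factor Fgf8 had values of 13.1, 9.99 and 3.78 FPKM (adjusted p = 0.213), and Wnt8a, another WNT ligand of the streak, had 6.91, 27.9 and 7.84 (adjusted p = 0.312). Between the T_Y88A stages, 7 of these 13 genes were at least 2-fold lower in TS13 and 0 higher, against 0.588% and 0.443% of all genes; Cyp26a1 had 4.08 and 4.38 FPKM.

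**Figure D2:**
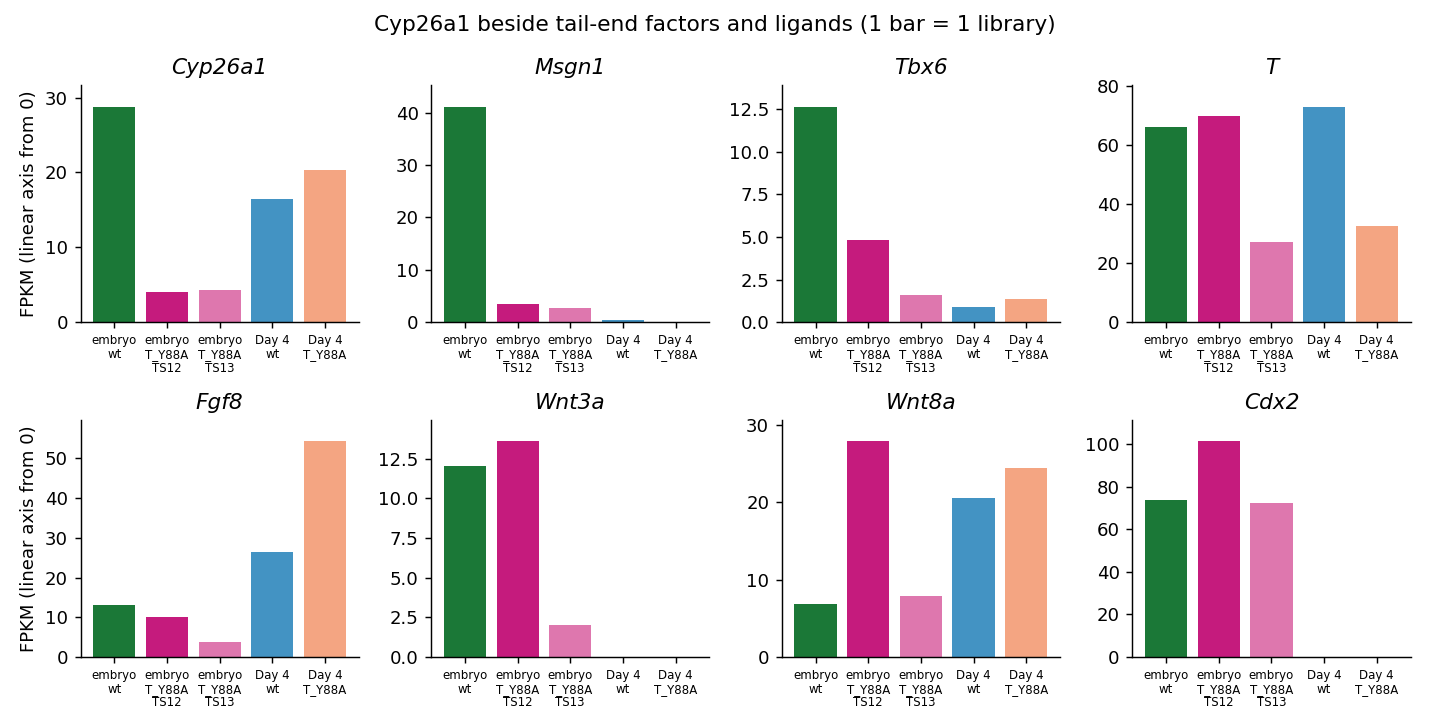
FPKM (linear axes from 0) of Cyp26a1 and 7 tail-end genes in the 5 libraries, 1 bar a library. Cyp26a1, Msgn1 and Tbx6 are lower in T_Y88A TS12, where T, Wnt3a and Cdx2 are near or above the wild type. The wild-type embryo library holds TS12 and TS13 together.

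The Day 4 genotypes were compared to see whether the difference is also found in culture. Cyp26a1 stood at 16.5 FPKM in the wild type and 20.3 in T_Y88A, a log2 difference of 0.29 with 1 library each and no test. The difference between the 2 genotype contrasts, tested as an interaction over all 5 libraries, was -2.80 ± 0.28 on the log2 scale (SE; limma adjusted p = 0.0409). The other 3 arms held 1 library each, so the gene's own spread came from the 2 T_Y88A embryo libraries. limma weighed that spread with a trend over all genes (5.16 prior degrees of freedom). Cyp26a1 was the 1 of 7 genes tested to pass, and 0.147% of 11602 genes did (0.0603% higher, 0.0862% lower). That call rests on 1 residual degree of freedom and ended under 6 of 8 alternatives, with adjusted p from 0.00232 to 0.102 over the 8, while the log2 difference stayed between -3.04 and -2.73. A fit that averages the genotype difference over both systems gave -1.31 and no call (adjusted p = 0.471). The presomitic markers summed to 17.3 and 10.8 FPKM at Day 4, with Msgn1 and Hes7 at 0 in T_Y88A, from 0.409 and 0.0722 in the wild type. Most of the difference in the sums was Rspo3 (6.94 and 1.45 FPKM). Tbx6 (0.879 and 1.39) and Dll3 (4.91 and 5.12) were higher in T_Y88A and the rest of the list lower. The part of these markers was not tested.

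Of the retinaldehyde dehydrogenases measured, Aldh1a2, the main one of the early embryo, was the 1 present at a clear level in embryos. Aldh1a2 (chromosome 9, 71215789 to 71296243) stood at 13 FPKM in wild-type embryos, 12.3 in T_Y88A TS12, 5.29 in T_Y88A TS13, 1.51 in wild-type Day 4 cells and 0.0862 in Day 4 T_Y88A. The TS12 value was close to the wild type, which held both stages, and the TS13 value 2.32-fold lower than TS12. Over both T_Y88A embryo libraries it averaged 8.78 ± 4.94 FPKM (SD, n = 2), a log2 difference of -0.62 (95% interval -1.35 to 0.12; limma adjusted p = 0.405). It was the 1 of 7 genes at least 2-fold apart between the T_Y88A stages, being lower, against 1.03% of all genes (0.443% higher, 0.588% lower). Markers of somites, a tissue known to express Aldh1a2, summed to 19.4 FPKM in the wild type, 8.98 in TS12 and 15.8 in TS13, with Meox2 listed at 0 in the wild type and TS12. Most of the TS12 to TS13 difference was Pax3 (4.40 and 10.8 FPKM), which neural cells also express, while Meox1 had 3.06 and 3.34 and Tcf15 0.548 and 0.346. Lateral plate and cardiac markers summed to 78.3, 60.5 and 58.3, with Nkx2-5 at 0 in all 3, and the part of these markers was not tested.

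The order of the 2 enzymes in T_Y88A embryos was the opposite of that in the wild type. Cyp26a1 stood 2.22 times as high as Aldh1a2 in the wild type, at 0.332 times in TS12 and at 0.827 times in TS13. At Day 4 the ratio was 10.9 in the wild type and 236 in T_Y88A, where the Aldh1a2 value is so low that the ratio is imprecise. Ratios of RNA do not measure the hormone.

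Aldh1a3 (chromosome 7, 66390892 to 66427477), the dehydrogenase best known from eye and nose, stood at 0.212 FPKM in wild-type embryos, 0.0187 in TS12, and was listed at 0 in TS13. Its Day 4 values were 0.0136 and 0.0287 FPKM, so it passed no filter and was not tested. Aldh1a1, another enzyme of this kind, lay at or under 0.106 FPKM. Rdh10, which makes the retinal that Aldh1a2 uses, stood at 6.5, 4.26 and 4.95 FPKM in embryos (adjusted p = 0.402) and at 12 and 5.61 at Day 4.

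Dhrs3 (chromosome 4, 144892534 to 144928209), which turns retinal back into retinol and so limits synthesis, is itself known to be induced by retinoic acid. It stood at 1.44 FPKM in wild-type embryos, 3.65 in T_Y88A TS12, 2.26 in T_Y88A TS13, 8.16 in wild-type Day 4 cells and 18.1 in Day 4 T_Y88A. In both systems the T_Y88A values lay above the wild type, and all Day 4 values above all embryo values. The embryo log2 difference was 0.67 (95% interval 0.04 to 1.30; limma adjusted p = 0.272), which did not pass over all genes. At Day 4 Dhrs3 was 2.22-fold higher in T_Y88A, the 1 of 7 genes past 2-fold there, against 1.94% of all genes (0.641% higher, 1.30% lower). Aldh1a2, under the filter at Day 4, had 1.51 and 0.0862 FPKM, a log2(FPKM + 1) difference of -1.21. Its fold is imprecise, since the lower value comes from 1 library of the lowest depth.

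**Figure D3:**
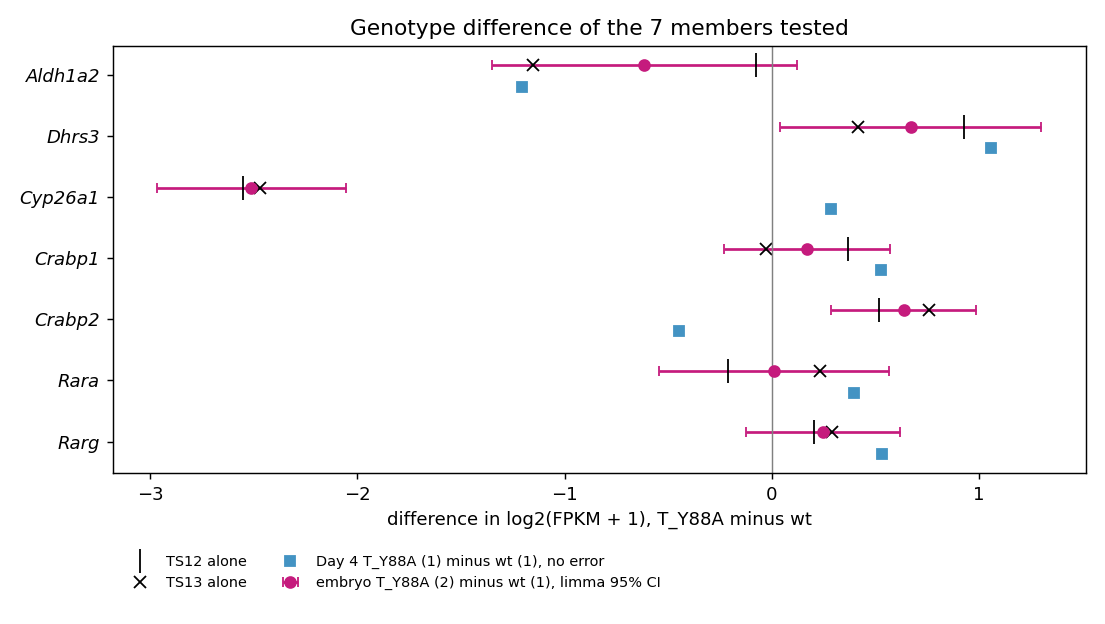
Difference in log2(FPKM + 1) between T_Y88A and wild type for the 7 genes tested, with limma 95% intervals for embryos (circles), the value of each T_Y88A embryo library (bar, TS12; cross, TS13) and the Day 4 difference of 1 library each (squares, no error). The Cyp26a1 interval (-2.97 to -2.06) lies apart from the other 6, and its Day 4 value is 0.29.

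The binding proteins were the most abundant of the 10 genes in embryos, Crabp2 lying above 98.8% and Crabp1 above 96.7% of all genes in the wild type. Crabp2 (chromosome 3, 87948693 to 87953372), which delivers retinoic acid to nuclear receptors, stood at 285 FPKM in wild-type embryos, 408 in T_Y88A TS12, 482 in T_Y88A TS13, 8.41 in wild-type Day 4 cells and 5.91 in Day 4 T_Y88A. Both T_Y88A embryo libraries were higher than the wild type, whose log2 value lay 0.64 below their mean (95% interval 0.29 to 0.99). This did not pass over all genes (limma adjusted p = 0.0627, with 0.0501 to 0.996 over 11 alternatives). Crabp1 (chromosome 9, 54764748 to 54773110), which is thought to hold the hormone in the cytoplasm and favour its breakdown, stood at 107, 138 and 105 FPKM in embryos (wild type, TS12, TS13) and at 1.66 and 2.83 at Day 4. The wild type lay between the T_Y88A stages (log2 difference 0.17, 95% interval -0.23 to 0.57, adjusted p = 0.716). At Day 4 the log2 differences of 1 library each were -0.45 for Crabp2 and 0.53 for Crabp1. Crabp2 was 2.67 to 4.60 times as high as Crabp1 in embryos.

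Among receptors, Rarg led in every library. Rarg (chromosome 15, 102234938 to 102257522), the receptor best known from the caudal embryo, stood at 33.6 FPKM in wild-type embryos, 38.9 in TS12, 41.3 in TS13, 23.0 in wild-type Day 4 cells and 33.7 in Day 4 T_Y88A. It made up 82.4% to 89.0% of the summed FPKM of the 3 receptors. Rara (chromosome 11, 98927800 to 98974942), the most widely expressed receptor, stood at 4.83, 4.03 and 5.86 FPKM in embryos and at 3.65 and 5.13 at Day 4. The embryo genotype differences were 0.25 for Rarg (95% interval -0.12 to 0.62, adjusted p = 0.526) and 0.01 for Rara (95% interval -0.54 to 0.56, adjusted p = 0.991). At Day 4 they were 0.53 and 0.40, with 1 library each. Both embryo intervals include 0, and any difference inside them remains compatible with these values.

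Rarb (chromosome 14, 16430839 to 17082331), the receptor gene that retinoic acid induces through a DR5 element, was near the lower end of the range measured. It stood at 1.13 FPKM in wild-type embryos, 0.770 in TS12, 0.482 in TS13, 1.25 in wild-type Day 4 cells and 1.11 in Day 4 T_Y88A. Both T_Y88A embryo values lay below the other 3. Its embryo mean was 0.795 FPKM, just under the filter, so it was not tested.

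Of 18 receptor partners and cofactors, 17 were tested in embryos and limma called 0 (1 at an unadjusted p under 0.05), with a median log2 difference of 0.12. Over all genes 2.40% were called, so 0 calls is near the background, and 1826 of 11145 had an unadjusted p under 0.05. The retinoid X receptors Rxra and Rxrb were measured at 3.70 and 4.67 FPKM in the wild type. In TS12 and TS13 Rxra had 5.56 and 5.59 FPKM (adjusted p = 0.323). Rxrb had 7.05 and 7.10 (adjusted p = 0.271). Rxrg stood at 0.896 FPKM in the wild type, 5.35 in TS12 and 0.744 in TS13, so TS12 alone was high. Of 26 other genes of retinoid metabolism and transport 12 were tested, and 0 were called (2 at an unadjusted p under 0.05), with a median of 0.10. The same shares of all genes apply to this list.

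Genes known to be induced by retinoic acid did not fall or rise together in the T_Y88A embryos. Of 24, 21 were tested and limma called 0 (6 at an unadjusted p under 0.05), with a median log2 difference of 0.18 and 13 of the 21 above 0. Of all genes tested 2.40% were called, so 0 calls is near the background, and 1826 of 11145 had an unadjusted p under 0.05. Hoxb1, an early direct target, stood at 13.5 FPKM in the wild type, 11.3 in TS12 and 11.2 in TS13 (adjusted p = 0.604). The list had no call in the interaction either (0 at an unadjusted p under 0.05). There 0.147% of all genes were called and 1476 of 11602 had an unadjusted p under 0.05.

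The comparison of embryo with Day 4 cells was made over all 5 libraries with genotype as a covariate. Aldh1a2, Crabp1 and Crabp2 were higher in embryos and Dhrs3 was lower, 4 of the 7 genes tested; 51.9% of all genes tested were called, 26.0% higher and 25.9% lower, so a count of 4 is near the background. Crabp1 had a log2 difference of 5.14 ± 0.18 (SE; limma adjusted p = 1.51e-06) and Crabp2 one of 5.54 ± 0.23 (SE; adjusted p = 3.97e-06), and they were 64.2-fold and 33.9-fold higher in FPKM between the wild-type libraries. Crabp1 had the 12th smallest p of 11602 genes. Aldh1a2 had a log2 difference of 2.82 ± 0.32 (SE; adjusted p = 0.000269) and Dhrs3 one of -2.13 ± 0.22 (SE; adjusted p = 0.000174). These 4 calls held in all 13 alternatives. Aldh1a2 passed the filter through the embryo libraries, its Day 4 values being 1.51 and 0.0862 FPKM, so its direction was fixed by the filter. Rarg (0.37, 95% interval 0.03 to 0.70, adjusted p = 0.0627) and Rara (0.10, adjusted p = 0.706) did not pass. Cyp26a1 did not pass either (-0.83, adjusted p = 0.206), and the value turned with the library left out: 0.77 (adjusted p = 0.0363) without Day 4 T_Y88A, and -2.03 without either wild-type library, with adjusted p of 0.00130 for the embryo one and 0.000317 for the Day 4 one.

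Most genes known to be induced by retinoic acid had a Day 4 mean under 1 FPKM. Of the 24, 21 passed the filter over all 5 libraries but 4 passed it over the Day 4 libraries alone, so most entered the fit through the embryo libraries and their direction was fixed by that. Limma called 20 of the 21 higher, which is therefore given as a description; Tgm2, a transglutaminase, was not called. The largest differences were Hoxd4 (5.01 ± 0.17, SE), Hoxb2 (4.82 ± 0.17), Hoxb3 (4.18 ± 0.18), Cdx1 (3.90 ± 0.52) and Hoxa5 (3.82 ± 0.20). Hoxd4, for example, stood at 29.1, 31.3 and 34.9 FPKM in embryos, and at 0.00907 and listed at 0 at Day 4.

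**Figure D4:**
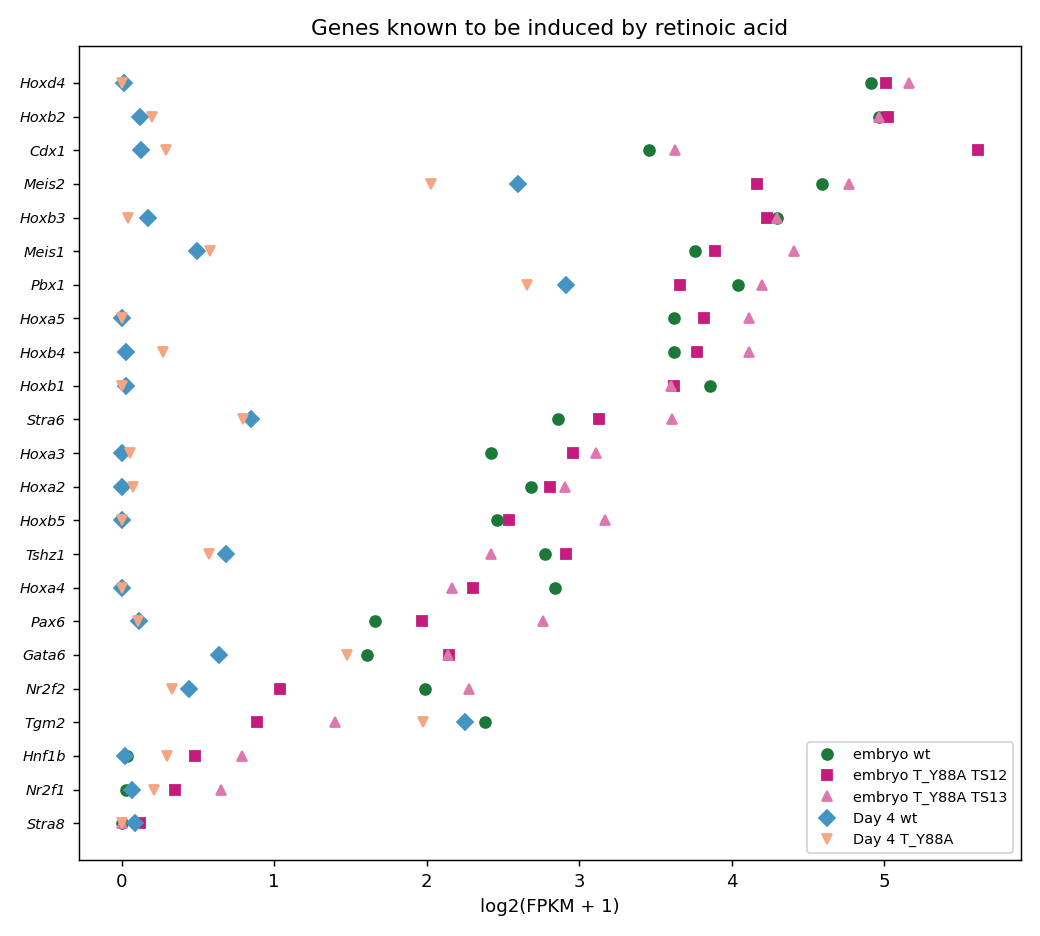
log2(FPKM + 1) of genes known to be induced by retinoic acid in the 5 libraries, ordered by their mean in embryos; each symbol is 1 library. Hoxd4, at the top, has 29.1 to 34.9 FPKM in embryos and under 0.01 at Day 4; the 3 embryo libraries lie close together for most genes, Cdx1 in TS12 being an exception.

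Among the other genes of retinoid metabolism and transport, 5 were higher and 3 lower in embryos of 12 tested, where 26.0% of all genes were higher and 25.9% lower, so the count is near the background. Fabp5, a carrier that can pass retinoic acid to another nuclear receptor, was higher by 2.47 ± 0.13 on the log2 scale (SE), and Stra6, the retinol transporter, by 2.33 ± 0.23. At Day 4 Stra6 had 0.804 and 0.739 FPKM, and Rbp4, also among the 5 higher, had 0.407 and 0.157. Both passed the filter through the embryo libraries, so their direction was fixed by the filter. Dhrs4, a retinal reductase, was higher by 1.62 ± 0.20, while Rdh11 (-1.29 ± 0.15) and Rdh14 (-1.18 ± 0.18), both retinol dehydrogenases of the same superfamily as Rdh10, were lower. Of the receptor partners and cofactors, 1 was higher and 6 lower of 17, against the same shares of all genes, among them Rxrb (-0.89 ± 0.16), the acetyltransferase Kat2b (-2.12 ± 0.19) and Ppard (-1.09 ± 0.21), the receptor that Fabp5 serves; the corepressor Nrip1 was the 1 higher (1.12 ± 0.24). Of the 13 tail-end genes, 9 were higher and Fgf8 was lower (-2.09 ± 0.46), but several of the 9, such as Wnt3a and Cdx2, passed the filter through the embryo libraries. Cdx2 stood at 0.0974 and 0.250 FPKM at Day 4. Marker sums differed widely between the systems. Lateral plate and cardiac markers had 58.3 to 78.3 FPKM in embryos and 1.44 to 1.98 at Day 4, with Nkx2-5 listed at 0 in all 5 libraries. Notochord and node markers had 3.74 to 9.80 and 28.0 to 52.6, and the embryonic globins among the blood markers were listed at 0 at Day 4. Foxj1 (27.4 and 21.4 at Day 4) made up most of both Day 4 notochord and node sums. Foxj1 and Chrd were higher in both Day 4 libraries than in any embryo library. Shh (4.06, 0.0478 and 0.390 in embryos, 1.77 and 0.146 at Day 4), Noto and Nog were not. Their part in the system differences was not tested.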

How the data were processed

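The 5 RNA libraries were analysed from 1 deposited table of FPKM made by the authors, used as deposited; the 7 chromatin samples were not analysed here. Per the labels' protocols, cells were sorted into lysis buffer and libraries made with a ScriptSeq v2 kit. Per the submitters' processing notes, TopHat2 2.0.8, Cufflinks 2.1.1, bedtools 2.23.0 and build mm10 were named, without roles; whether strand was used is not given. Each column was assigned to its sample through numbers, stages or names in the labels, and 0 columns were left unused. Nothing says that libraries are separate animals or cultures, so p-values measure the spread between these libraries, moderated by the spread of all genes.

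Values were analysed as log2(FPKM + 1), which understates changes of low genes, keeping genes whose mean over the fitted libraries reached 1 FPKM, with 792 small RNA symbols left out. limma 3.58.1 with a variance trend in R 4.3.3 gave two-sided p-values, called at 0.05 after Benjamini-Hochberg adjustment across every gene fitted. The embryo fit had 1 residual degree of freedom, the fit of embryo against Day 4 had 2, and the interaction 1. Their prior degrees of freedom, the weight of the variance shared over genes, were 11.0, 6.06 and 5.16. The fits were also run on data simulated from their own fitted variances, without a stage difference. That run cannot test whether the wild-type library varies like the T_Y88A libraries. Day 4 and stage comparisons had 1 library each and no test; genes at least 2-fold apart were counted. Alternatives were a pseudocount of 0.1, other filters, quantile and median ratio scaling, small RNA genes kept, other variance models, other fits and leaving out libraries. Context genes were those in lists that passed a test, at most 5 for each list and comparison, and a few fixed by name; Wnt8a, Tgm2, Cdx1 in embryos and Blvrb were added after their values were seen. Gene coordinates and promoter windows are from RefSeq GRCm38.p6, counted from 1. 1 gene of the induced list is counted with it but not reported here by itself. The genes, lists and markers were chosen with earlier results of these data known. Python 3.11.15 was used for tables and plots.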

Additional observations from a re-analysis of the deposited data

Results flagged for a closer look

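Cyp26a1 drew attention because its genotype difference was not the same in the 2 systems by a test of that difference. The embryo difference minus the Day 4 difference was -2.80 on the log2 scale (limma adjusted p = 0.0409). The gene's own spread behind it came from the 2 T_Y88A embryo libraries alone, the other 3 arms holding 1 library each. limma weighed that spread with a variance trend over all genes. The call was lost under 6 of 8 alternatives (adjusted p from 0.00232 to 0.102). Both T_Y88A embryo libraries (4.08 and 4.38 FPKM) lay below the wild type (28.8), and the 1 Day 4 T_Y88A library (20.3) lay above its own (16.5).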

How the results depend on the processing

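No paired analysis was possible because the labels give no replicate numbers. The embryo count of 1 called gene of the 10 became 0 with no filter, in the fit over all 5 libraries with system as covariate, and in that fit without either T_Y88A embryo library (0 to 0), where the Cyp26a1 log2 difference, averaged with Day 4, was -1.31 and, with 1 library left out, -1.09 and -1.13. The count over all genes, 267, became 0 with no filter, 34 with quantile normalization and 8 over all 5 libraries (3 to 8 with 1 library left out). The interaction count of 1 became 0 with a pseudocount of 0.1, no filter, quantile normalization, median ratio scaling, small RNA genes kept and no variance trend. Over all genes its 17 calls (7 higher) became 1245 (270 higher) with no filter, 42 (20 higher) at a filter of 5 FPKM, 10 (3 higher) with quantile normalization, 9 (2 higher) with median ratio scaling, 9 (2 higher) with small RNA genes kept and 7 (2 higher) with no variance trend. With no filter 2 genes instead of 1 were past 2-fold at Day 4, Aldh1a2 being added. Between embryo and Day 4, leaving out 1 library moved Rara from -0.063 to 0.33 (negative without either wild-type library) and Cyp26a1 from -2.03 to 0.77 (positive without Day 4 T_Y88A). Apart from these, the log2 differences of the tested genes kept their direction in every alternative run. Why calls changed was not tested. FPKM without read totals limit what can be said of Cyp26b1, Aldh1a3 and Rarb.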

Other observations

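Patterns over the 5 libraries were compared by the root mean square difference of log2(FPKM + 1), each gene centred on its own mean, among 11602 genes. The 5 genes nearest to Cyp26a1 were Blvrb (0.23), Ell2 (0.30), Tcf15 (0.32), Ramp2 (0.35) and Mpzl2 (0.38), where Cyp26a1 itself varied by 1.06 about its mean. Tcf15, a transcription factor of somites, stood at 5.26 FPKM in wild-type embryos, 0.548 and 0.346 in the T_Y88A embryos, and 1.77 and 3.09 at Day 4. The genes nearest to Aldh1a2 were Nkd1, Gja1, Ccdc80, Uqcrq and Postn (0.35 to 0.40). Those nearest to Crabp1 were Hoxb2, Hoxd4, Hoxc4, Tmem132c and Lrrc17 (0.26 to 0.36), so that 3 of the 5 were Hox genes.

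Blvrb, a biliverdin reductase abundant in red cells, shares with Cyp26a1 a DR5 pair close to a RefSeq start site, which was seen only after its values. The Blvrb pair lies on the opposite strand at -19 to -3 of the window chr7:27452168-27452467 (GRCm38.p6), and the 3 pairs below are read in the direction of the half-sites, which are in capitals.
Cyp26a1: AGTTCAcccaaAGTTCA
Blvrb: AGTTCAaagccAGTTCA
Rarb: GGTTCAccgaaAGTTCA
Blvrb stood at 29.7 FPKM in wild-type embryos, 6.70 and 6.87 in the T_Y88A embryos, and 17.3 and 25.4 at Day 4 (embryo limma adjusted p = 0.000345). Of the 31 genes with a DR5 window, 9 were in the table and 3 passed the embryo filter: Cyp26a1, Blvrb and the embryonic globin Hbb-y (1190.1 FPKM, then 209 and 408; adjusted p = 0.00296). All 3 fell, but Blvrb had drawn the search and Cyp26a1 was its starting point, so the count supports nothing. Others under the filter were higher in T_Y88A embryos, such as Syndig1 (listed at 0 in the wild type, then 0.605 and 0.554 FPKM) and Prokr2 (0.0265, then 0.281 and 0.137). Blood and endothelial markers, Hbb-y among them, were lower in the same libraries (6294, 1120 and 2206 FPKM summed), and their part in the Blvrb values was not tested; at Day 4 these markers summed to 2.43 and 3.04 FPKM.

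Tgm2, also known as a retinoic acid target, missed the embryo threshold narrowly at 4.20 FPKM in the wild type against 0.853 and 1.63 (adjusted p = 0.0512). Cdx1 stood at 9.97, 47.9 and 11.4 FPKM in the wild type, TS12 and TS13, so TS12 alone was high among embryos.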
